A study of Drosophila melanogaster with 32 samples.

Results

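The chorion is the outer layer of the Drosophila eggshell, and 8 of the genes that build it were followed through 32 arrays of whole mated females. They were Cp15, Cp16, Cp18, Cp19, Cp36, Cp38, Cp7Fc and dec-1 (defective chorion 1). They were chosen by name as a gene family, with earlier results of these data known. Each was measured by 1 probe set that named no other gene, so the family is 8 of 18769 probe sets tested and 8 of 11982 named genes. The array annotation gave 7 of the 8 symbols exactly, while dec-1 stood there as dec and was found through its gene identifier. In the RefSeq table of the assembly Release 6 plus ISO1 MT, Cp18, Cp15, Cp19 and Cp16 follow each other in that order on chromosome arm 3L. Cp7Fc, Cp36 and Cp38 are neighbours on the X chromosome, and dec-1 is an X-linked gene outside that cluster.

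The flies were adult Drosophila melanogaster descended from the laboratory population LHM. Monogamous populations (Mono1 to Mono4), in which a fly could mate only once per generation, and promiscuous populations (Prom1 to Prom4), kept on the stock's standard mating scheme, had been separated for 46 generations. Females were mated within their population or with males of the same-numbered population of the other regime, and were frozen whole 6 h later. The 4 kinds of cross were Mono females with Mono males, Mono females with Prom males, Prom females with Mono males and Prom females with Prom males, with 8 arrays of each. A cross is named by the female's and then the male's population, so that M3P3 is Mono3 females mated with Prom3 males. Every cross was measured on 2 arrays, called biological replicates in the series' design, 1 in batch 2 and 1 in batch 1, and the labels do not state how many flies went into one or what the batches were. All flies descend from 1 base stock, and all had been mated. Values are log2 expression from RMA, in which 1 unit is a doubling, and they are compared only within a gene because probe sets differ in how strongly they bind.

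Chorion proteins are secreted by the follicle cells, the epithelium around the oocyte, in the last stages of egg development. To make enough of them in a short time, the follicle cells copy both gene clusters many times over, a developmental gene amplification that is a textbook case in this fly. The genes come on in sequence: dec-1 acts early and is needed to organise the shell, Cp36 and Cp38 are early chorion genes, Cp16 and Cp19 follow, and Cp15 and Cp18 are late ones. In whole flies a lower value can come from fewer follicle cells at a stage or from less RNA in each, and these cannot be told apart here.

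The chorion genes were among the most variable transcripts of the table. dec-1 lay between 9.93 and 11.38 over the 32 arrays. Cp36 lay between 11.43 and 13.51, and Cp38 between 11.44 and 13.70. Cp15 spanned 12.27 to 14.08. These 4 genes therefore varied over 1.45 to 2.26 log2 units, where the median probe set varied over 0.552.

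The other 4 varied more. Cp7Fc lay between 5.80 and 10.52, a 26.5-fold range. Cp19 spanned 8.96 to 13.65 (26.0-fold), and Cp16 spanned 6.97 to 12.37 (42.3-fold). Cp18 had the widest range of all 18769 probe sets, 5.53 to 12.84 (158-fold), and Cp16, Cp7Fc and Cp19 ranked 14, 19 and 20.

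By kind of cross, the lowest, median and highest Cp18 values were 5.53, 11.19 and 12.80 in Mono females with Mono males, and 9.85, 11.14 and 11.92 in Mono females with Prom males. They were 8.41, 11.49 and 12.84 in Prom females with Mono males, and 8.35, 10.87 and 12.46 in Prom females with Prom males. The medians lay within 1 log2 unit of each other while each group spread over 2.07 to 7.27 units, so all 4 groups overlapped. Cp16 gave 6.97, 10.82 and 12.16 in Mono females with Mono males, then 10.21, 10.69 and 11.71 in Mono females with Prom males. In Prom females its values were 9.86, 11.13 and 12.37 with Mono males, and 7.48, 10.49 and 12.17 with Prom males. The low arrays of both genes were single arrays whose partner from the same cross was not low, as the plot of all values shows.

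**Figure D1:**
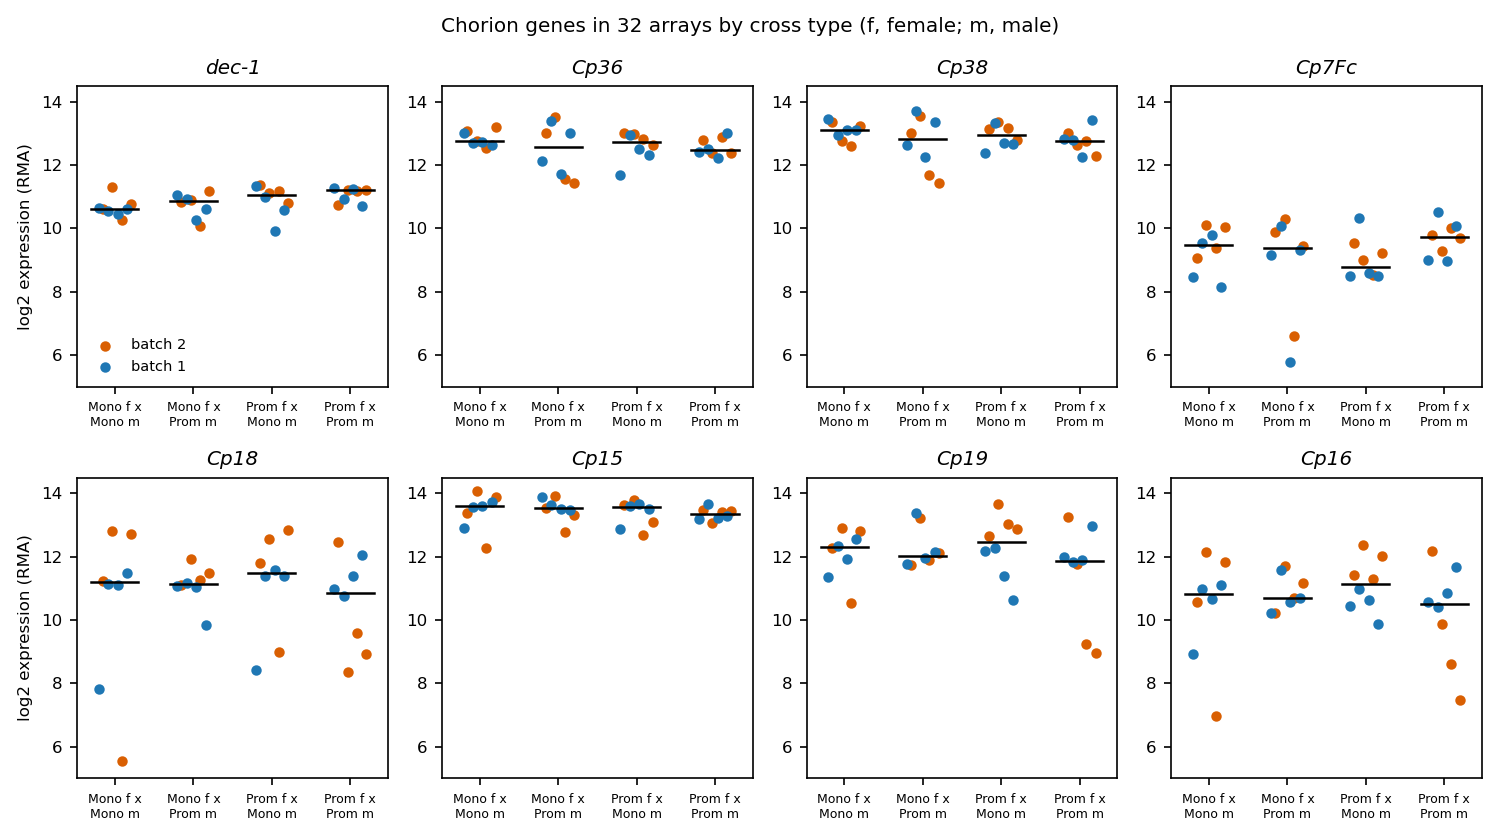
Each point is 1 array's log2 RMA expression (vertical axis) for a chorion gene, in the 4 kinds of cross (horizontal axis, 8 arrays each), coloured by batch, with the group median as a bar. Medians of a gene stay close while Cp18 runs from 5.53 to 12.84, and Cp7Fc has 2 low points, 5.80 and 6.61, in Mono females with Prom males.

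The spread between arrays of one cross was measured as the residual SD after crosses and batch were fitted. It was 1.76 log2 units for Cp18, the highest of all probe sets. Cp16 had 1.32 and ranked 6, and Cp19 had 1.12 and ranked 10. Cp7Fc followed with 0.600 (rank 64), Cp38 with 0.469 (rank 99), Cp36 with 0.467 (rank 101), Cp15 with 0.414 (rank 132) and dec-1 with 0.311 (rank 285). The median over all probe sets was 0.117, and 0.0955 over the 8668 with a mean of at least 6. All 8 genes thus stood in the upper tail, including dec-1, which varied least. Of a gene's sum of squares over the 32 arrays, the share between the 2 arrays of a cross was 54.0% to 56.2% for the 4 genes of the 3L cluster, 42.3% for Cp36, 42.2% for Cp38, 37.2% for dec-1 and 19.6% for Cp7Fc. The median over all probe sets was 49.1%, so only Cp7Fc stood far from it, with most of its variation between crosses. Both Cp7Fc arrays of cross M3P3 were low, 6.61 and 5.80, where the other 30 arrays lay between 8.14 and 10.52. The share without that cross was not computed.

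**Figure D2:**
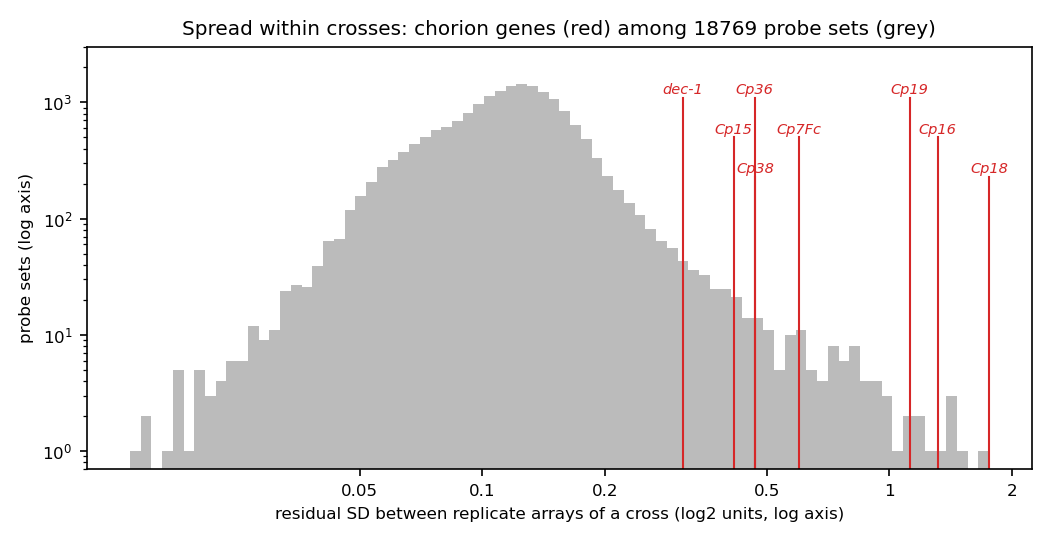
The grey histogram counts probe sets (vertical axis, log scale) by residual SD between replicate arrays of a cross (horizontal axis, log2 units on a log scale), and red lines mark the chorion genes. Cp18 at 1.76 is the rightmost of 18769 probe sets, and dec-1 at 0.311 is still right of the bulk around 0.117.

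The 2 arrays of a cross differed by more than 1 log2 unit for Cp18 in 13 of 16 crosses, for Cp16 in 8, for Cp19 in 7 and for Cp7Fc in 5. For Cp36 and Cp38 this was so in 2 crosses each, and for Cp15 and dec-1 in 1 each. Only 13 of the 18769 probe sets differed that much in at least 8 crosses, Cp18 and Cp16 among them.

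In cross M3M3, Cp18 was 5.53 in batch 2 and 11.11 in batch 1, while Cp16 was 6.97 and 10.65 in the same order. In P4P4, Cp19 was 8.96 in batch 2 and 12.97 in batch 1, and Cp16 was 7.48 and 11.69. Cp15 in P4P4 was 13.44 in batch 2 and 13.27 in batch 1, so 1 gene of the 3L cluster was nearly equal on the 2 arrays where others lay far apart. The direction was not fixed by batch: in M1M1, Cp18 was 11.23 in batch 2 and 7.81 in batch 1. In M4P4 the swing fell on the X cluster instead, with Cp36 at 11.43 in batch 2 and 13.03 in batch 1 and Cp38 at 11.44 and 13.38.

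Across all crosses, batch 2 minus batch 1 passed the test for 0 of the 8 chorion genes, where 19.8% of all probe sets passed (limma, adjusted p under 0.05). That test compares means and does not see spread. Over a batch's 16 arrays the SD was 1.67 in batch 2 and 0.646 in batch 1 for Cp16. In the same order it was 2.05 and 1.15 for Cp18, and 1.38 and 0.641 for Cp19. Cp15 (0.489 and 0.287), Cp36 (0.552 and 0.472) and Cp38 (0.581 and 0.444) also spread more in batch 2. Cp7Fc (0.873 and 1.14) and dec-1 (0.370 and 0.385) did not. The difference in spread between batches was not tested. The array with the lowest Cp18 and Cp16, M3M3 in batch 2, correlated at 0.998 with its batch mean over the other probe sets, and 8 arrays correlated less. The 3' minus 5' signal of the control probe sets, a sign of RNA quality, was 2.33 to 2.67 in batch 2 and 1.54 to 1.97 in batch 1. Within batches it correlated with the chorion genes at -0.31 to -0.01 over 32 arrays, and its part in their spread was not tested beyond a covariate in the female regime comparison.

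The replicate differences were not independent from gene to gene: some pairs of chorion genes swung together. Pearson's r was computed for all 28 pairs over the 16 replicate differences, batch 2 minus batch 1, with two-sided permutation p-values adjusted over the 28 pairs. Cp36 and Cp38, adjacent early genes of the X cluster, were closest (r = 0.957, rho = 0.924, permutation p = 1e-05 for r, the smallest that 100000 permutations give, adjusted p = 0.00014). Without the 2 crosses in which Cp36 lay farthest from its median difference, r was 0.904. Here and below, such crosses were picked by the first-named gene of a pair alone. Among all 18768 other probe sets, Cp38 was the one most alike to Cp36, and Cp36 the one most alike to Cp38.

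On 3L the closest pair was Cp16 and Cp19 (r = 0.917, rho = 0.897, permutation p = 1e-05, adjusted p = 0.00014, and r = 0.917 without the 2 farthest crosses). Cp19 was the probe set most alike to Cp16, while Cp16 ranked 4 for Cp19. Cp16 and Cp18 also moved together (r = 0.820, rho = 0.797, permutation p = 0.00013, adjusted p = 0.0012), with r = 0.658 without those crosses. For Cp15 and Cp18, both late genes, r was 0.722 (rho = 0.726, permutation p = 0.0017, adjusted p = 0.012). It fell to 0.465 without the 2 farthest crosses, so that relation rests in part on them. Among all 18768 other probe sets, Cp18 ranked 43 in likeness to Cp15, and Cp15 ranked 20 for Cp18. Cp15 and Cp19 lie side by side in the genome and showed r = 0.002 (rho = 0.144, permutation p = 0.996, adjusted p = 0.996).

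These were the 4 pairs whose r passed after adjustment: 3 of 6 within the 3L cluster, 1 of 3 within the X cluster and 0 of 19 between clusters or with dec-1. The median r was 0.644 within 3L, 0.460 within X and 0.177 for the remaining pairs. Cp7Fc and Cp36 reached an adjusted p of 0.018 for rho (0.70) but of 0.304 for r (0.460). dec-1 had r between -0.30 and 0.07 with the other 7 genes. The difference between the classes of pair was itself not tested, and the share of passing pairs among other probe sets was not computed.

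**Figure D3:**
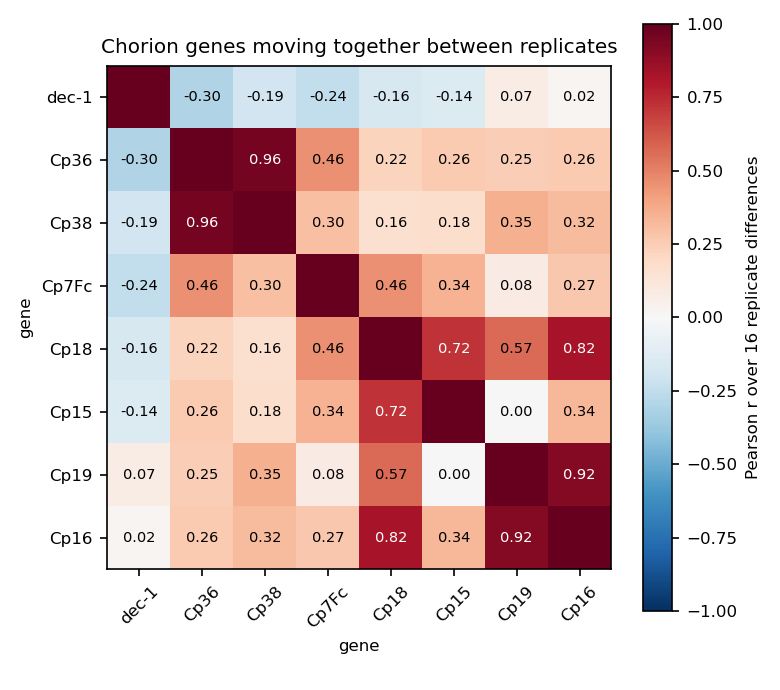
Each square gives Pearson's r between 2 chorion genes over 16 replicate differences (batch 2 minus batch 1), from blue (-1) to red (1), with genes of a cluster next to each other on both axes. The dark squares are Cp36 with Cp38 (0.96), Cp16 with Cp19 (0.92) and Cp16 with Cp18 (0.82), and the dec-1 row is pale.

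The first question of the design is whether females evolved under monogamy and promiscuity differ. No chorion gene did so by the test, in which 4 Mono population means were set against 4 Prom ones: 0 of 8 chorion genes and 0% of all probe sets passed (limma with Benjamini-Hochberg adjustment). At an unadjusted p under 0.05 there were 1312 probe sets and 0 chorion genes. The median difference of the 8 genes was 0.001 log2 units, against -0.004 over all probe sets.

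dec-1 came nearest. Its population means were 10.79, 10.92, 10.27 and 10.79 in Mono1 to Mono4, against 11.19, 11.07, 10.88 and 10.84 in Prom1 to Prom4. Mono2 lay above both Prom3 and Prom4, so the regimes overlapped. The difference, Mono minus Prom, was -0.30 ± 0.14 (SE, 4 populations a regime, 95% interval -0.61 to 0.02, limma adjusted p = 0.718).

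For Cp36 the difference was 0.06 ± 0.17, for Cp38 0.04 ± 0.16 and for Cp15 0.12 ± 0.14. Cp7Fc differed by -0.27 ± 0.39, Cp19 by 0.27 ± 0.37, Cp16 by -0.04 ± 0.42 and Cp18 by -0.05 ± 0.42 (adjusted p 0.918 to 0.993 for these 7). The intervals show what the design could miss: -0.996 to 0.905 for Cp18 and -0.34 to 0.45 for Cp36. For 0 of 8 genes did all Mono population means lie on one side of all Prom ones, where 1.6% of all probe sets lay wholly higher in Mono and 2.48% wholly lower.

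Population means spread more widely under monogamy than under promiscuity in 8 of 8 genes, a direction that 55.5% of all probe sets shared. The genes share arrays and move together, so these are not 8 separate observations. The SD of the 4 means was 0.403 in Mono and 0.0942 in Prom for Cp36, 0.878 and 0.326 for Cp7Fc, and 0.917 and 0.434 for Cp16. For Cp19 it was nearly equal, 0.627 in Mono and 0.622 in Prom. Without Mono3 the range of the Mono means of dec-1 fell to 0.13, below the 0.35 among Prom means. For the other genes it stayed above that of Prom, for Cp7Fc at 0.87 against 0.76. The difference in spread between regimes was not tested.

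The male a female had mated with was the second factor. Mono minus Prom males gave 0 of 8 chorion genes and 0% of all probe sets past the test, with 1977 probe sets at an unadjusted p under 0.05. The differences were 0.33 ± 0.19 for Cp19, 0.28 ± 0.17 for Cp38, 0.23 ± 0.26 for Cp16 and 0.20 ± 0.16 for Cp36 (SE over 8 female populations). They were -0.11 ± 0.09 for dec-1, -0.08 ± 0.38 for Cp7Fc, -0.04 ± 0.51 for Cp18 and -0.03 ± 0.09 for Cp15. The lowest adjusted p of the 8 was 0.561, for Cp19.

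Whether the male's regime mattered differently in the 2 kinds of female is the interaction, coded as the male difference in Mono females minus that in Prom females. Again 0 of 8 chorion genes and 0% of all probe sets passed, with 1367 probe sets at an unadjusted p under 0.05, Cp16 and Cp19 among them. With Mono minus Prom males, Cp16 differed by -0.45 ± 0.37 in Mono females and 0.92 ± 0.37 in Prom females, and Cp19 by -0.19 ± 0.27 in Mono females and 0.85 ± 0.27 in Prom females. The interaction was -1.37 ± 0.52 for Cp16 (limma adjusted p = 0.664) and -1.04 ± 0.38 for Cp19 (limma adjusted p = 0.664). In batch 2 alone the interaction was -2.80 for Cp16 and -2.37 for Cp19 (limma adjusted p = 1 for both), and in batch 1 alone it had the other sign, 0.06 for Cp16 and 0.29 for Cp19 (limma adjusted p = 0.974 and 0.869). Their values in the P4P4 array of batch 2, given above, enter the Prom side of this contrast. Without the Prom4 females, however, the interaction stayed negative and close to the full value for both genes. It moved more for both when Mono3 or Prom1 females were left out. The part of single arrays in the interaction was not tested.

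**Figure D4:**
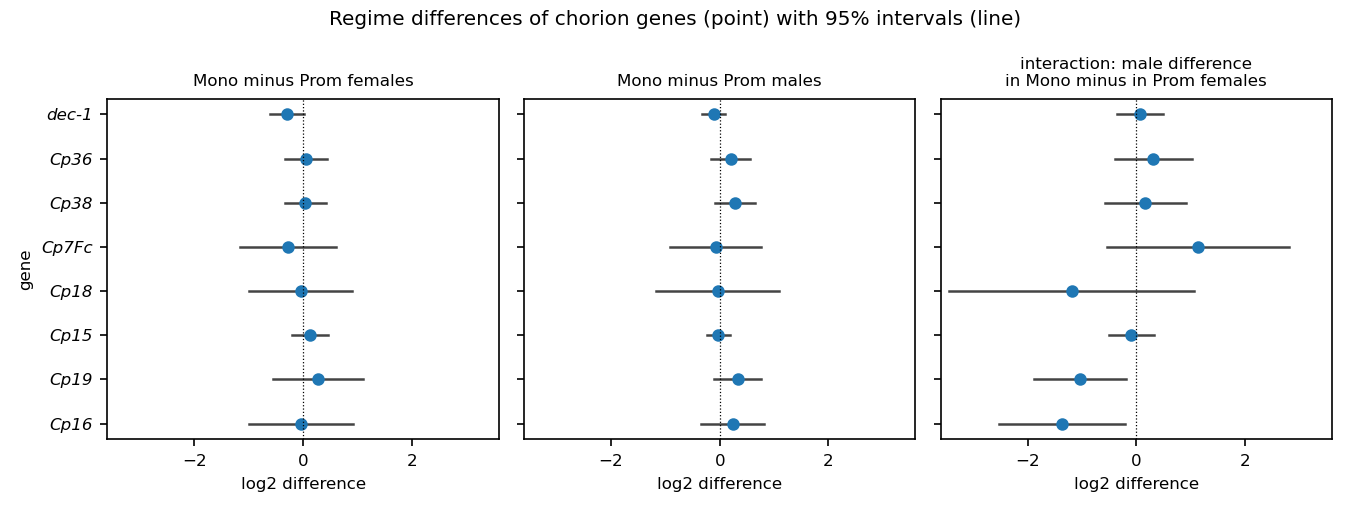
Points are log2 differences with 95% intervals as lines for the 8 chorion genes (vertical axis): Mono minus Prom females, Mono minus Prom males, and the male difference in Mono minus in Prom females. The intervals of the first 2 panels all include 0, and in the third those of Cp16 (-1.37) and Cp19 (-1.04) lie below 0 before adjustment.

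Populations of one regime did differ in 1 chorion gene. Among the 4 Mono female populations 1 of 8 genes passed the moderated F test, where 10.7% of all probe sets passed, so the share is near that of the whole table. That gene was Cp7Fc, whose 4 arrays averaged 9.14 in Mono1, 10.01 in Mono2, 7.89 in Mono3 and 9.24 in Mono4 (range 2.12, limma F adjusted p = 0.0040). Among the Prom populations 0 of 8 passed, where 7.67% of all probe sets did. Prom means of Cp7Fc lay between 9.02 and 9.79 (adjusted p = 0.563).

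In all 8 chorion genes Mono3 had the lowest and Mono2 the highest mean of the Mono populations, an order found in 8.9% of all probe sets. The genes share arrays and move together, so this is not 8 separate observations. By the median of a population's 4 arrays, Mono3 was not the lowest for Cp16, Cp19 or Cp18. Its medians were 10.60 for Cp16, 11.92 for Cp19 and 11.084 for Cp18, against 10.22, 11.76 and 11.079 in Mono1. Cp36 averaged 13.09 in Mono2 and 12.14 in Mono3 (range 0.95, adjusted p = 0.146). Cp18 averaged 11.76 in Mono2 and 9.74 in Mono3 (range 2.02, adjusted p = 0.502), and its arrays within Mono3 ran from 5.53 to 11.25.

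Each population was then set against the other 3 of its regime. Mono3 was lower in 2 of 8 genes, where 2.53% of all probe sets were called lower: Cp7Fc differed by -1.58 ± 0.30 (SE, adjusted p = 0.0035) and dec-1 by -0.56 ± 0.16 (adjusted p = 0.0496). With cyclic loess normalization the dec-1 difference was also -0.56 and just missed the threshold (adjusted p = 0.0517). The dec-1 arrays of Mono3 were 10.28 and 10.46 with Mono males and 10.09 and 10.27 with Prom males, below all but 1 of the other 28 arrays. Mono2 was higher in 1 of 8 genes, where 2.03% of all probe sets were called higher: Cp7Fc differed by 1.25 ± 0.30 (adjusted p = 0.0213). The other 6 populations gave 0 chorion genes each, where the share of all probe sets called was 5.11% in Mono1, 4.4% in Mono4, 3.07% in Prom1, 2.12% in Prom2, 4.36% in Prom3 and 2.86% in Prom4.

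The Cp7Fc results rested on 1 cross. In M3P3, Cp7Fc was 6.61 in batch 2 and 5.80 in batch 1. In M3M3, females of the same population with their own males, it was 9.38 and 9.78. The other 30 arrays lay between 8.14 and 10.52, so both arrays of M3P3 stood apart and below. Mono minus Prom males within Mono3 females came to 3.37 ± 0.53 (SE, 2 arrays a cross, limma adjusted p = 0.0324). This comparison was added after the values had been seen, for each of the 8 female populations, and 0.0107% of all probe sets passed it in Mono3. In the other 7 populations 0 chorion genes passed, where 0.00533% of all probe sets passed in Mono1 and in Mono4 and 0% in the rest. Cp7Fc there had the opposite sign, from -1.03 to -0.24.

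Without M3P3, an omission chosen after the data were seen, the Cp7Fc range among Mono populations was 0.87 (adjusted p = 0.376). Mono2 then differed by 0.69 (adjusted p = 0.269), and Mono3 turned to 0.11 (adjusted p = 0.939). dec-1 in Mono3 became -0.46 (adjusted p = 0.305), so 0 chorion genes were called in these 3 refitted contrasts.

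**Figure D5:**
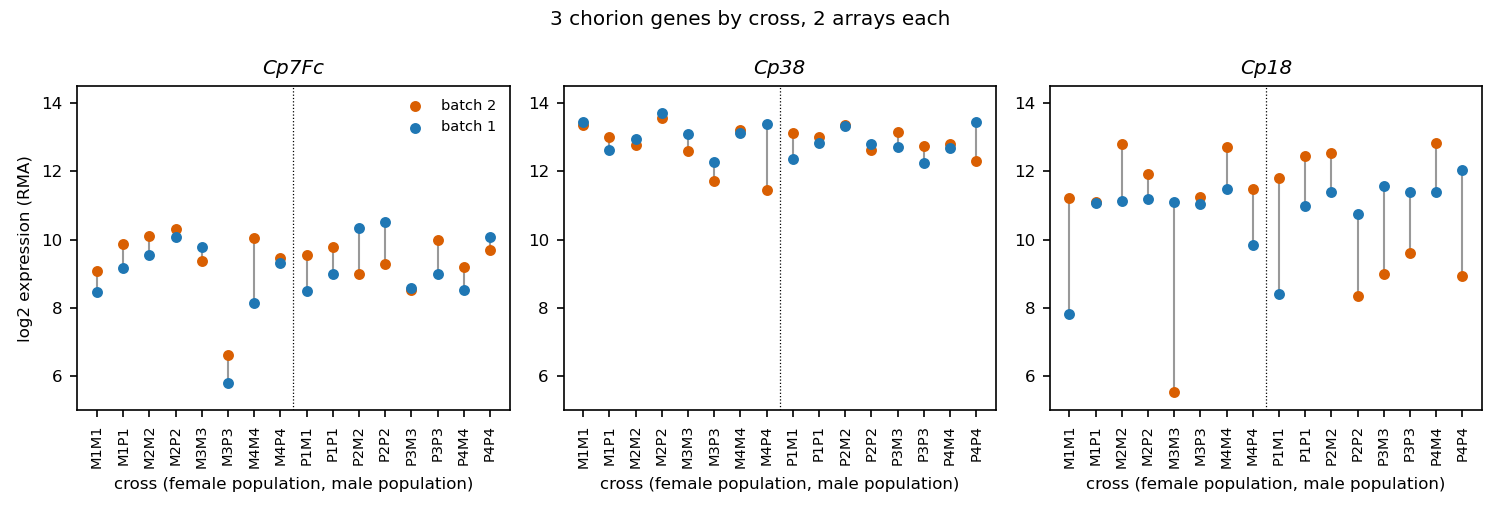
Log2 RMA expression (vertical axis) of Cp7Fc, Cp38 and Cp18 in the 16 crosses (horizontal axis, female then male population), with the 2 arrays of a cross joined by a grey line and coloured by batch. Cp7Fc is low in both arrays of M3P3 (6.61 and 5.80), while Cp18 has long lines, the longest in M3M3 (5.53 in batch 2 and 11.11 in batch 1).

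The family did not follow Cp7Fc as a whole in M3P3. Cp36 was 11.55 in batch 2 and 11.73 in batch 1 of M3P3, against 12.53 and 12.74 in M3M3. Cp38 was 11.71 and 12.26 in M3P3, against 12.61 and 13.10 in M3M3. The gaps between the 2 crosses were 0.84 to 1.01 log2 units, and both genes stayed inside the range of the other 30 arrays. The low end of that range was the batch 2 array of M4P4 for both genes (11.43 for Cp36 and 11.44 for Cp38). The medians of the other 30 arrays were 12.76 for Cp36 and 12.98 for Cp38, above all M3P3 values. dec-1 was 10.09 and 10.27 in M3P3, where the other 30 arrays had a median of 10.92 and began at 9.93. Cp19 was 11.91 and 11.96 in M3P3, and Cp16 was 10.70 and 10.55, close to the medians of the other 30 arrays (12.17 for Cp19 and 10.76 for Cp16).

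M3P3 was the only cross of the 16 in which any probe set lay more than 1 log2 unit below all other arrays. There were 3 such probe sets in it: Cp7Fc, Obp19c, which belongs to the odorant-binding protein family, and 1 with no gene named here. Obp19c was 5.33 in batch 2 and 5.08 in batch 1 of M3P3, against 7.32 and 7.91 in M3M3, and the other 30 arrays began at 6.87. yellow-g2, a gene of the Yellow family needed for a rigid eggshell, was 7.11 and 6.61 in M3P3, against 7.61 and 9.36 in M3M3. These genes were picked after their values had been seen.

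The genes most like the chorion family over the 32 arrays were sought among 7254 other genes with a mean log2 of at least 6. Each was correlated with the mean of the 8, each array taken less its batch mean. The values share arrays and are a description. The 10 highest were Mur2B (r = 0.902), CG13083 (0.823), CG31928 (0.809), CG31661 (0.781), Femcoat (0.766), CG16956 (0.761), CG32642 (0.736), Muc12Ea (0.726), CG13084 (0.725) and CG6508 (0.705). Femcoat is an eggshell protein of the follicle cells, and Mur2B and Muc12Ea are named as mucin or mucin-related genes. Mur2B itself varied over 1.67 log2 units and Femcoat over 3.88.

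Subsets of the family had different companions, a split made after the values had been seen. Among the same genes, with a mean log2 of at least 6, the mean of the 3L genes was closest to CG13083 (0.814) and Femcoat (0.812). Mur11Da, an eggshell gene below that level (mean 5.44), reached 0.880 with the 3L genes. The mean of Cp36 and Cp38 was closest to CG11381 (0.885) and CG4009 (0.845). Cp7Fc was closest to Obp19c (0.930), CG14834 (0.910) and CG32645 (0.885). Over the 30 arrays without M3P3 these correlations were 0.824 for Obp19c, 0.864 for CG14834 and 0.912 for CG32645. dec-1 was closest to Vm26Ac (0.910), St4 (0.883), yellow-k (0.839), Vm32E (0.783) and Vm34Ca (0.781). The Vm genes make the vitelline membrane, the eggshell layer under the chorion that is laid down before it.

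The replicate differences gave related partners without any difference between crosses or populations. Femcoat was the probe set most alike to Cp19 (r = 0.967), St4 to dec-1 (0.942), CG32645 to Cp7Fc (0.927) and CG15147 to Cp15 (0.909). For Cp18 it was a probe set with no gene named here (0.857), and Cp16 ranked 3.

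Genes beside the 2 clusters showed weak or negative correlation with them. Of the 4 nearest protein-coding genes on each side, 5 of 8 at the X cluster and 6 of 8 at the 3L cluster had a probe set. Among those without one were Cp7Fa and Cp7Fb, which lie beside Cp7Fc and are on the list of other eggshell genes. They are chorion genes by name, so the X cluster was followed only in part. Their correlation with the mean of their cluster ran from -0.45 for Nrg, a cell adhesion gene, to 0.24 for CG32022. Their ranges over the 32 arrays were 0.37 for otu, a germline gene next to Cp38, to 1.02 for PIP82. Prm, the paramyosin gene next to Cp16, had r = -0.14.

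Other eggshell genes, 16 of a list of 22, had 0 members past the test for female or male regime and 0 for populations of either regime, where all probe sets gave 0% for each regime, 10.7% among Mono populations and 7.67% among Prom populations. The lowest p in the female comparison fell on Vm32E (-0.44 ± 0.10, adjusted p = 0.578), Vm26Ac (-0.42 ± 0.17, adjusted p = 0.675) and ndl (-0.17 ± 0.08, adjusted p = 0.721). The mean of this list correlated with the 3L genes at 0.593, with Cp36 and Cp38 at 0.684, with Cp7Fc at 0.658 and with dec-1 at 0.534. Single members differed widely in this. With the 3L genes they ran from -0.13 for clos to 0.88 for Mur11Da, and with Cp36 and Cp38 from -0.37 for clos to 0.74 for Muc4B. Several of its members also varied widely between arrays: Femcoat over 3.88, Fcp3C over 3.49, yellow-g2 over 3.47, Mur11Da over 3.38 and yellow-g over 3.03 log2 units. Vm34Ca varied over 0.54 and Vm26Aa over 0.72.

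Genes of the replication machinery that amplifies the chorion clusters, 21 of a list of 27, had 0 members past the test for either regime. Among Mono populations 1 of 21 passed, where 10.7% of all probe sets did: Orc4, a subunit of the origin recognition complex (range 0.43, adjusted p = 0.0108). Among Prom populations 0 of 21 passed, where 7.67% of all probe sets did. In the female comparison the lowest p fell on CycE (0.18 ± 0.05), chif (0.17 ± 0.05) and mip120 (0.07 ± 0.04), with adjusted p of 0.581 for the first 2 and 0.780 for mip120. The list mean correlated with the 3L genes at 0.151 and with Cp36 and Cp38 at 0.356.

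Regulators active in late follicle cells, 14 of a list of 18, also had 0 members past the test for either regime. Among Mono populations 1 of 14 passed, where 10.7% of all probe sets did: Cad74A, a cadherin made in follicle cells (range 1.03, adjusted p = 0.0045). It was 6.25 in batch 2 and 6.12 in batch 1 of M3P3 where the other 30 arrays began at 6.30. Among Prom populations 0 of 14 passed, where 7.67% of all probe sets did. The lowest p in the female comparison fell on ftz-f1 (0.21 ± 0.06, adjusted p = 0.604), ct (0.09 ± 0.03, adjusted p = 0.634) and usp (0.08 ± 0.04, adjusted p = 0.712). The list mean correlated with the 3L genes at 0.036.

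Yolk and germline lists were read on the same arrays. The yolk protein genes are made in follicle cells as well as in fat body, and Yp1, Yp2 and Yp3 averaged 14.74, 14.54 and 14.48 where the highest value of the table was 14.8, so these probe sets had little room to vary upward. The mean of the yolk list (4 of 4 genes) was 13.64 to 13.83 over the 32 arrays, and that of the female germline list (10 of 11) was 9.66 to 9.96. By kind of cross the yolk mean was 13.64 to 13.80, 13.70 to 13.83, 13.74 to 13.80 and 13.69 to 13.82, in the order used above. The germline mean was 9.70 to 9.94, 9.76 to 9.96, 9.66 to 9.82 and 9.75 to 9.83. The mean of the chorion genes themselves was 10.01 to 12.38. Correlations with the 3L genes were 0.109 for yolk and -0.126 for germline, and yolk correlated with dec-1 at 0.534.

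Neither yolk nor germline genes passed for female or male regime. Yp2 (-0.11 ± 0.04, adjusted p = 0.687) and piwi (0.26 ± 0.08, adjusted p = 0.614) had the lowest p of their lists. Of the germline list, 1 of 10 passed among Mono populations and 1 of 10 among Prom populations, where 10.7% and 7.67% of all probe sets did. Both times it was aub (range 0.28, adjusted p = 0.0032 in Mono, and range 0.21, adjusted p = 0.0379 in Prom). Male accessory gland (10 of 11) and testis genes (13 of 13) had list means of 3.57 to 3.75 and 3.53 to 3.76, and 0 passed for either regime. Of these lists 1 gene, Acp76A, passed among Prom populations (range 0.32, adjusted p = 0.0092) and 0 among Mono populations. The part of cell composition in the chorion values was not tested.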

How the data were processed

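The deposited table holds log2 values for each probe set on each array, made with RMA and the affy package (versions not stated), per the submitters' processing notes. RMA fits arrays to a common intensity distribution, so a shift of most transcripts at once would not be seen. The sources used here do not state whether 1 run covered all arrays, and no detection calls were used. Array medians lay between 5.412 and 5.502. Of 18952 probe sets, 183 controls were left out and 18769 tested. Of these 13646 named 1 gene, 402 several and 4721 none, and a gene was represented by its probe set with the highest mean. The annotation comes from the platform table, with RefSeq used for symbols and gene order only.

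Tests used limma 3.58.1 in R 4.3.3, two-sided, and p-values were adjusted by Benjamini-Hochberg across the tested table at a threshold of 0.05. Female regime was tested on 8 population means, since populations and not arrays replicate a regime. Male regime and interaction used 16 cross means with female population as a block, and take as independent 8 differences that rest on 4 pairs of male populations. Populations within a regime and batch were tested on 32 arrays with cross and batch as terms (15 residual degrees of freedom). A female population met only males of its own number, so both are mixed in these contrasts. Permutations and correlations used Python 3.11.15 with SciPy 1.17.1. The fits were checked on simulated data.

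The members and gene lists were chosen with earlier results of these data known, so their counts are descriptions. Every member is reported. From each other list the genes that passed the regime tests or the F tests between populations are named. Those of lowest p in the female comparison are named too, except for male accessory gland and testis genes. Listed genes called for batch or in single-population contrasts are not given. The 10 genes most like the family by correlation are also named. Alternatives were cyclic loess, a mean log2 of at least 6, each batch alone, leaving out each population, other blocks, arrays as replicates and an RNA quality covariate.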

Additional observations from a re-analysis of the deposited data

Results flagged for a closer look

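One value stood apart from its group. Among the 8 arrays of Mono females with Prom males, the lowest Cp18 value, 9.85 in the batch 1 array of M4P4, was farther from its nearest neighbour than Dixon's 95% criterion allows. The other 7 arrays of that group lay between 11.05 and 11.92. In the other 3 kinds of cross Cp18 reached lower values, 5.53, 8.41 and 8.35, but no single array met the criterion. A second array of each group was low too (7.81, 8.99 and 8.92 in the same order), which narrows the gap to the nearest neighbour. The low Cp7Fc arrays of M3P3, 5.80 and 6.61, fell in one group and were not flagged either. The rule was applied to 48 groups of values, and chance alone marks about 1 group in 20.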

How the results depend on the processing

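In the regime, interaction and batch comparisons the 8 chorion genes gave 384 refitted values in all, and 1 had an adjusted p under 0.05: Cp7Fc for batch 2 minus batch 1 without replicate 2 (0.58, adjusted p = 0.0304, range over its alternatives 0.0304 to 0.695), where the full value was 0.32. The count of chorion genes called for batch was 0 to 1 when population numbers were left out. Several differences that did not pass changed sign, and the cause was not tested. In batch 2 alone the female regime difference was 0.0098 for Cp16, 0.32 for Cp18, -0.10 for Cp36 and -0.19 for Cp38, and with the RNA quality covariate 0.074 for Cp16, 0.14 for Cp18 and 0.0069 for Cp7Fc. The male difference was -0.37 for Cp16 and -0.41 for Cp19 in batch 1 alone, and 0.42 for Cp18 and 0.015 for dec-1 in batch 2 alone. The interaction was 0.061 for Cp16, 0.20 for Cp18 and 0.29 for Cp19 in batch 1 alone, and 0.070 for Cp15 and -0.036 for dec-1 in batch 2 alone. Prom4 against the other Prom populations gave 0.0064 for Cp36 with cyclic loess, and Mono3 gave 0.11 for Cp7Fc without the cross M3P3. Leaving out 1 population at a time, the female difference ran from -0.37 to 0.26 for Cp16, -0.37 to 0.31 for Cp18, -0.090 to 0.23 for Cp36, -0.075 to 0.20 for Cp38 and -0.59 to 0.12 for Cp7Fc. The male difference ran from -0.11 to 0.056 for Cp15, -0.38 to 0.33 for Cp18 and -0.56 to 0.13 for Cp7Fc, and the interaction from -0.26 to 0.074 for Cp15, -0.0025 to 0.54 for Cp38 and -0.10 to 0.23 for dec-1. For batch the ranges were -0.23 to 0.11 for Cp15, -0.31 to 0.46 for Cp16, -0.62 to 0.89 for Cp18, -0.19 to 0.23 for Cp19, -0.057 to 0.28 for Cp36 and -0.28 to 0.056 for Cp38. Among Mono populations 1 chorion gene was called. The count was 0 in batch 1 alone, in batch 2 alone and with batch-centred arrays, where the Cp7Fc range stayed at 2.03, 2.21 and 2.12 (adjusted p = 0.554, 0.285 and 0.0769). It was also 0 without M3P3, where that range was 0.87 (adjusted p = 0.376). It was 0 to 3 when populations were left out, being 0 without Mono2 (Cp7Fc range 1.35, adjusted p = 0.0578) or Mono3 (0.87, adjusted p = 0.292). It was 3 without Mono4, when Cp36 (adjusted p = 0.024) and Cp38 (adjusted p = 0.0388) passed too, and 2 without Prom3, when dec-1 did (adjusted p = 0.0346). Mono2 had 0 called genes without M3P3, and Mono3 had 1 with cyclic loess, which put dec-1 at an adjusted p of 0.0517, and 0 without M3P3. Over their alternatives the adjusted p of Cp7Fc ran from 0.000214 to 0.554 among Mono populations, 0.00285 to 0.939 for Mono3 and 0.0159 to 0.269 for Mono2, and that of dec-1 in Mono3 from 0.0321 to 0.305. Over all probe sets, the female regime had 515 calls with 32 arrays as replicates and 127 with a random block for female population, against 0. Populations had 639 and 767 calls in Mono and 340 and 540 in Prom in batch 1 and batch 2 alone, against 2002 and 1440, and as few as 762 in Prom when a population was left out. Mono3 had 418 without M3P3, against 847, and batch had 2062 to 2574 with a number left out, against 3717. Same-numbered Mono and Prom populations deviated together only weakly (r = 0.024 to 0.193 over all probe sets). With the number as a replicate block, dec-1 stayed at -0.30 (adjusted p = 0.623) and 0 probe sets were called, and without the female population block the male comparison had 0 too. With 4 populations a regime, only differences well above the spread between populations can be seen.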
